A study of Mus musculus with 2 samples.

Results

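Toll-like receptor signalling was followed through 10 genes in mouse splenic germinal centre B cells, which proliferate and mutate their antibody genes in follicles. These genes, taken by symbol from the 41214 genes of the deposited table, were the receptors Tlr1, Tlr2, Tlr3, Tlr4, Tlr6, Tlr7 and Tlr9, the receptor-related Cd180, the trafficking chaperone Unc93b1 and the adaptor Myd88. Each symbol had a single row. There were 2 libraries of total RNA, 1 labelled Cbl-/-Cblb-/- and 1 labelled wild type, from C57BL/6 mice immunized with 1000000000 sheep red blood cells into a vein, whose spleens were taken on day 10. The sort took B220+ Fas+ GL7+ CD138- cells. Cbl and Cblb encode ubiquitin ligases, and the sources used here did not give the exons removed, any Cre driver, or the sex, age and number of the animals. With 1 library per genotype no difference has a replicate check and no test was run.

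Toll-like receptors recognise conserved parts of microbes and, inside endosomes, nucleic acids. TLR1, TLR2, TLR4 and TLR6 signal mainly from the cell surface, whereas TLR3, TLR7 and TLR9 bind double-stranded RNA, single-stranded RNA and DNA in endosomes and need the chaperone UNC93B1 to get there. All of them except TLR3 signal through the adaptor MyD88, which gathers IRAK kinases and the ubiquitin ligase TRAF6 and leads to NF-kappaB. In B cells this input promotes proliferation and antibody secretion, and it can act together with the B cell receptor. CD180, also called RP105, resembles TLR4 outside the cell but lacks the signalling domain inside it.

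Gene reads totalled 38223328 in the Cbl-/-Cblb-/- labelled library, against 26749540 in the wild type labelled library. The genes named in that label were both higher in the library that carries it: Cbl had 1183 normalized reads in it, against 169 in the wild type labelled library, and Cblb had 2839 under the Cbl-/-Cblb-/- label against 1001 under the wild type label. Every direction given here is therefore one between labels, and none stands for a genotype. Normalized reads are gene reads divided by 1 size factor per library. Ratios are the value in the Cbl-/-Cblb-/- labelled library over that in the wild type labelled library, and their 95% intervals cover counting error only. Of the B cell markers, Cd79b had 32213 normalized reads under the Cbl-/-Cblb-/- label against 177690 under the wild type label, and Ms4a1 had 53839 under the Cbl-/-Cblb-/- label against 39206 under the wild type label. Of the germinal centre markers, Bcl6 had 13835 normalized reads under the Cbl-/-Cblb-/- label against 7995 under the wild type label. S1pr2 had 11222 normalized reads under the Cbl-/-Cblb-/- label against 12720 under the wild type label, and Fas, a marker of the sort, had 2819 under the Cbl-/-Cblb-/- label against 4137 under the wild type label. These markers of the labelled cell type were thus abundant in both libraries.

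Tlr9 was the member that differed by far the most between the labelled libraries, and Unc93b1 and Myd88, on which its protein depends, differed little. The promoter of Tlr9 is printed here beside those of Tlr1, which had a similar level per length to Tlr9 in the Cbl-/-Cblb-/- labelled library, and of Myd88, whose values were close in both libraries. Sequences are from RefSeq on GRCm38.p6, 250 bases before to 50 bases after a start site, read 5′ to 3′ along the gene. The table held such a sequence for 7 of the 10 members, and Tlr4, Tlr7 and Unc93b1 were not among them. Capitals mark matches on either strand to any motif searched other than the E-box.
Tlr9, chr9:106222348-106222647, plus strand: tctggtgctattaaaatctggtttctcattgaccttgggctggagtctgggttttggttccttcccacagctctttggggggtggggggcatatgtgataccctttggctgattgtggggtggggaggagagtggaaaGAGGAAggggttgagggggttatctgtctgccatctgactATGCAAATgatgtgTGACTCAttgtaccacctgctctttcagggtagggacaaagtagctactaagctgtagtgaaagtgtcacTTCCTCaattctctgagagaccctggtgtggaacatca
Tlr1, chr5:64933509-64933808, minus strand: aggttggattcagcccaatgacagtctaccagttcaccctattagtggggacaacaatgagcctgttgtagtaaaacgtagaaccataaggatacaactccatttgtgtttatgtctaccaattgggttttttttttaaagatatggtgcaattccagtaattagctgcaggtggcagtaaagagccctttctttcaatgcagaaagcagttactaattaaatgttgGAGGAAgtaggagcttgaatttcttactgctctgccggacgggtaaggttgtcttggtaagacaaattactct
Myd88, chr9:119339969-119340268, minus strand: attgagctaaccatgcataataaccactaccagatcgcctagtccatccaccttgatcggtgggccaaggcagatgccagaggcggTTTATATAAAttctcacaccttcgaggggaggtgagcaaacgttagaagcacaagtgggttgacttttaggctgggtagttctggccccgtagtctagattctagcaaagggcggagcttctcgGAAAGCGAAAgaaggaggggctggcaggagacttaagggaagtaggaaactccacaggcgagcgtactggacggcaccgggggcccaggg

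The 8 motifs searched on both strands were the octamer ATTTGCAT, the AP-1 site TGANTCA, the PU.1 box GAGGAA, the NF-kappaB site (GGG, any 5 bases, CC), the interferon-stimulated response element core (GAAA, any 2 bases, GAAA), the cAMP response element TGACGTCA, the TATA box TATAAA and the E-box CANNTG. The window of Tlr9 held 1 octamer match beginning 72 bases before the start, 1 AP-1 match at 58 bases before it, and 2 PU.1 box matches, at 112 bases before and 13 bases into the transcript. Among 32851 promoter windows of this length, 1.74% held an octamer match, 7.81% an AP-1 match and 28.3% a PU.1 box match. RefSeq gave Tlr1 a further start, whose window, not printed, held no PU.1 box match. For Tlr1 the printed window held 1 PU.1 box match, at 23 bases before the start, and no octamer or AP-1 match. In the Myd88 window there were 2 TATA box matches on opposite strands that overlap each other, at 164 and 160 bases before the start, and 1 interferon-stimulated response element core at 40 bases before it. The TATA box letters were in 13.6% of all windows and that core in 3.44%. An E-box, found in 72.3% of all windows, matched in each of these 3. No window of the 3 held the NF-kappaB letters (50.8% of all windows) or the cAMP response element (1.79%). A match describes these letters only.

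Tlr9 encodes the endosomal receptor for DNA rich in unmethylated CpG and lies on chromosome 9 at 106222598 to 106226883 of GRCm38, plus strand (ENSMUSG00000045322). Its reads numbered 4204 in the Cbl-/-Cblb-/- labelled library, against 48 in the wild type labelled library. In normalized reads Tlr9 stood at 2938 under the Cbl-/-Cblb-/- label against 68.7 under the wild type label, so Tlr9 was 42.8-fold higher (32.2 to 58.1) in the Cbl-/-Cblb-/- labelled library. On the log2 scale with 1 added to each value the ratio was 5.40, which ranked 40 from the top among 10443 genes. Those are the genes that reached 100 normalized reads in whichever library was higher, a floor applied to all counts of genes. In bulk samples fewer cells of a type and less RNA per cell cannot be told apart. In the authors' deposited table, which compares the same 2 unreplicated libraries, Tlr9 had a p of 0.00397 and an adjusted p of 0.944. That table had 0 of 19179 genes with an adjusted p under 0.05, and 511 with an unadjusted p under 0.05.

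Tlr7, on chromosome X at 167304929 to 167330558, minus strand, encodes the endosomal receptor for single-stranded RNA. It had 524 reads in the Cbl-/-Cblb-/- labelled library, against 97 in the wild type labelled library, or 366 normalized reads under the Cbl-/-Cblb-/- label against 139 under the wild type label, which is 2.64-fold higher (2.12 to 3.31). Tlr3, the receptor for double-stranded RNA, lies on chromosome 8 at 45395665 to 45411080, minus strand. It stood at 62.9 normalized reads under the Cbl-/-Cblb-/- label against 47.2 under the wild type label, below the floor in both, with a ratio of 1.33 whose interval (0.885 to 2.05) holds 1. The exons of the opposite-strand gene Gm45542 cover 7.32% of the exon bases of Tlr3, and whether counting used strand was not given, so its few reads are uncertain in origin. Summed over Tlr3, Tlr7 and Tlr9, the endosomal receptors had 3368 normalized reads under the Cbl-/-Cblb-/- label against 255 under the wild type label. Without Tlr9 the sums were 429 under the Cbl-/-Cblb-/- label and 186 under the wild type label, a ratio of 2.31 (1.91 to 2.81).

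Unc93b1, on chromosome 19 at 3935186 to 3949340, plus strand, encodes the membrane chaperone that carries the endosomal receptors out of the endoplasmic reticulum. It had 12120 normalized reads in the Cbl-/-Cblb-/- labelled library, against 12968 in the wild type labelled library (17340 reads under the Cbl-/-Cblb-/- label and 9064 under the wild type label). The ratio was 0.935 (0.911 to 0.959), and its direction turned when the libraries were scaled to total reads or adjusted for gene length. Tlr9 stood at 0.198 times the level of Unc93b1 per kilobase (0.191 to 0.205) in the Cbl-/-Cblb-/- labelled library and at 0.00433 times (0.00319 to 0.00574) in the wild type labelled library. Such ratios within a library do not depend on how the libraries were scaled. The chaperone transcript was thus nearly level between libraries in which Tlr9 and Tlr7, whose products it carries, were not.

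**Figure D1:**
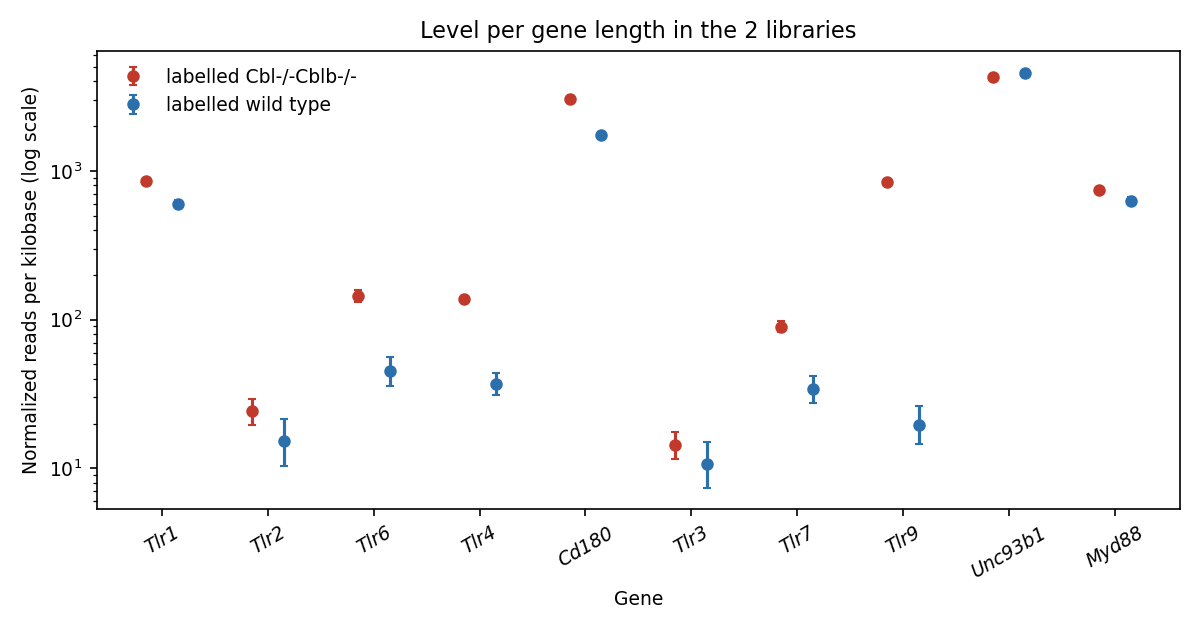
Normalized reads per kilobase of gene length (log scale) for the 10 genes in the Cbl-/-Cblb-/- labelled library (red) and the wild type labelled library (blue), with exact Poisson 95% intervals for counting error. Tlr9 stood at 845 under the Cbl-/-Cblb-/- label against 19.7 under the wild type label per kilobase, whereas Unc93b1 and Myd88 had points of nearly equal height.

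Myd88, on chromosome 9 at 119335934 to 119341411, minus strand, had 1905 normalized reads in the Cbl-/-Cblb-/- labelled library, against 1612 in the wild type labelled library (2726 reads under the Cbl-/-Cblb-/- label and 1127 under the wild type label), a ratio of 1.18 (1.10 to 1.27). Exons of Acaa1a on the opposite strand cover 11.3% of its exon bases, so a part of these reads may belong to that gene. The adaptor used by all the receptors except Tlr3 was detected at 740 normalized reads per kilobase under the Cbl-/-Cblb-/- label and 626 under the wild type label. Tlr9 had 1.14 times the Myd88 level per kilobase (1.09 to 1.20) in the Cbl-/-Cblb-/- labelled library, against 0.0315 times (0.0231 to 0.0421) in the wild type labelled library.

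Among the surface receptors, Tlr4 and Tlr6 were more than 2-fold higher in the Cbl-/-Cblb-/- labelled library and Tlr1 and Tlr2 were not. Tlr4, the lipopolysaccharide receptor, lies on chromosome 4 at 66827584 to 66930284, plus strand. It had 1088 reads under the Cbl-/-Cblb-/- label and 144 under the wild type label, or 760 under the Cbl-/-Cblb-/- label against 206 under the wild type label after normalization, and was 3.69-fold higher (3.10 to 4.42). Its partner for lipopolysaccharide binding, MD-2, is encoded by Ly96, which had 121 normalized reads in the Cbl-/-Cblb-/- labelled library, against 180 in the wild type labelled library, a ratio of 0.671 (0.530 to 0.851) whose log2 value was 0.35 after adjustment for length. Per kilobase, Tlr4 thus stood at 1.16 times Ly96 (0.984 to 1.36) in the Cbl-/-Cblb-/- labelled library and at 0.210 times (0.164 to 0.269) in the wild type labelled library. Tlr4 is 5556 bases long and Ly96 1021, and the adjusted log2 ratios, 1.31 and 0.35, lay closer together than the unadjusted 1.88 and -0.57. Cd14, which hands lipopolysaccharide to that pair on myeloid cells, had only 7 reads under the Cbl-/-Cblb-/- label and 16 under the wild type label, and Lbp, the serum protein before it, had 0 in both.

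Tlr2 pairs with Tlr1 or Tlr6 to recognise lipopeptides, and lies on chromosome 3 at 83836272 to 83841767, minus strand. The common partner Tlr2 was scarce, with 104 reads under the Cbl-/-Cblb-/- label and 32 under the wild type label, or 72.7 normalized reads under the Cbl-/-Cblb-/- label against 45.8 under the wild type label, below the floor in both libraries (ratio 1.59, 1.06 to 2.44). Tlr1 had 2274 normalized reads under the Cbl-/-Cblb-/- label against 1582 under the wild type label, a ratio of 1.44 (1.34 to 1.54). Tlr6 had 375 under the Cbl-/-Cblb-/- label against 117 under the wild type label from 537 reads under the Cbl-/-Cblb-/- label and 82 under the wild type label, and was 3.20-fold higher (2.53 to 4.09). Both lie on the minus strand of chromosome 5, Tlr1 at 64924679 to 64933563 and Tlr6 at 64952031 to 64960097. In all, 454 windows of 50 bases, the read length, are identical between them, which is 13.6% of the windows of Tlr1 and 12.3% of those of Tlr6. How reads with several matches were counted was not given, so the split between these paralogs is uncertain. Summed over both genes, 2650 normalized reads under the Cbl-/-Cblb-/- label against 1700 under the wild type label gave a ratio of 1.56 (1.46 to 1.67). Tlr2 was at 0.0281 times the Tlr1 level per kilobase (0.0229 to 0.0342) in the Cbl-/-Cblb-/- labelled library and 0.0255 times (0.0173 to 0.0362) in the wild type labelled library, 2 intervals that overlap, so Tlr1 far outnumbered its partner in both libraries.

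Cd180, on chromosome 13 at 102693558 to 102739629, plus strand, had the highest level per length of the receptor genes in both libraries. It had 13722 normalized reads in the Cbl-/-Cblb-/- labelled library, against 7820 in the wild type labelled library (19632 reads under the Cbl-/-Cblb-/- label and 5466 under the wild type label), a ratio of 1.75 (1.70 to 1.81). Exons of Mast4 on the other strand cover 4.04% of its exon bases. Ly86 encodes MD-1, the secreted protein that CD180 needs to reach the surface, and had 3124 normalized reads under the Cbl-/-Cblb-/- label against 3309 under the wild type label (ratio 0.944, 0.898 to 0.993), on either side of 1 depending on the scaling. Per kilobase, Cd180 stood at 0.971 times Ly86 (0.940 to 1.0) in the Cbl-/-Cblb-/- labelled library and at 0.523 times (0.498 to 0.549) in the wild type labelled library. Cd180 is 4509 bases long and Ly86 997, and after adjustment for length the order of their log2 ratios turned, to 0.49 for Cd180 and 0.85 for Ly86.

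**Figure D2:**
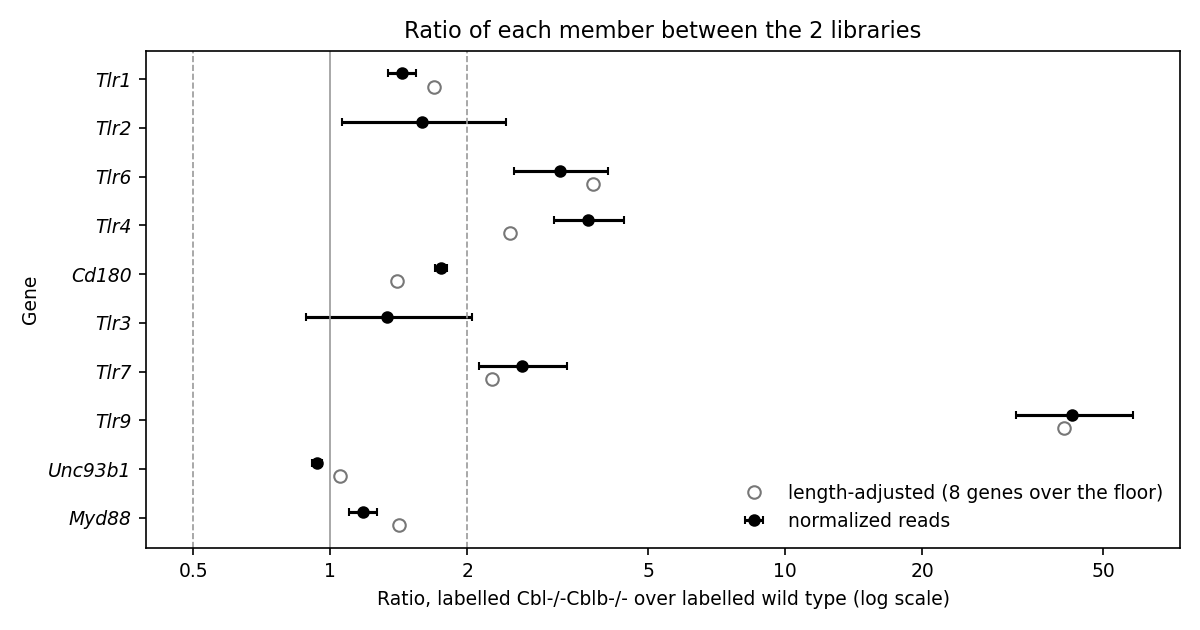
Ratio of each gene between the libraries (labelled Cbl-/-Cblb-/- over labelled wild type, log scale), from normalized reads with exact conditional 95% intervals for counting error (black) and after adjustment for gene length (open circles, 8 genes over the floor). Dashed lines mark 2-fold, and Tlr9 at 42.8 lies far to the right of Tlr4 at 3.69, Tlr6 at 3.20 and Tlr7 at 2.64.

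Of the 10 members, 8 were over the floor of 100 normalized reads in the higher library. Of these, 4 (Tlr4, Tlr6, Tlr7 and Tlr9) were higher by 2-fold or more in the Cbl-/-Cblb-/- labelled library, as were 27.8% of all genes over the floor. Lower by 2-fold or more were 0 members and 23.3% of all genes. The median log2 ratio of these 8 was 1.10, beside 0.15 over all genes, whose quartiles were -0.91 and 1.13. Tlr6, Tlr7 and Tlr9 passed the floor in the Cbl-/-Cblb-/- labelled library and also stood at 117, 139 and 68.7 normalized reads in the wild type labelled library, so that only Tlr9 of these 3 was under the floor in the wild type labelled library. When scaled to total reads, which adds 0.52 to every log2 ratio, 6 members reached 2-fold (41.9% of all genes) and 0 lower (13.7% of all genes), with Cd180 and Tlr1 joining the 4.

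Ratios between these libraries follow gene length across all genes, with long genes higher in the Cbl-/-Cblb-/- labelled library. The members are of middling length, from 2576 bases for Myd88 to 5556 bases for Tlr4. Tlr9, of 3478 bases, falls among 1305 genes of 2895 to 3652 bases whose median log2 ratio was 0.07 and of which 21.1% were at least 2-fold higher. A quadratic fit on log2 length over all genes over the floor took up 23.7% of the variance, and ratios minus this fit are called adjusted. The adjusted log2 ratio was 5.36 for Tlr9, 1.92 for Tlr6, 1.31 for Tlr4 and 1.18 for Tlr7. Tlr1 stood at 0.76, Myd88 at 0.50, Cd180 at 0.49 and Unc93b1 at 0.07. After adjustment 4 members were at least 2-fold higher (18.1% of all genes) and 0 lower (21.3% of all genes), the 4 being those named before.

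**Figure D3:**
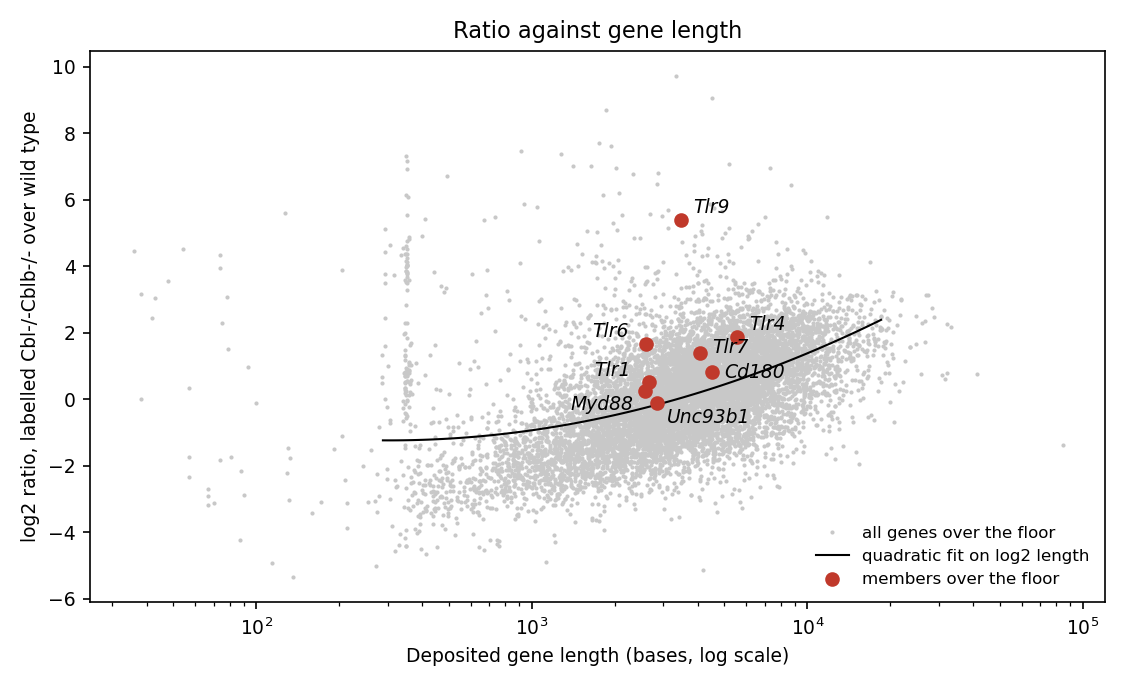
Log2 ratio (labelled Cbl-/-Cblb-/- over labelled wild type) against deposited gene length (log scale) for the 10443 genes over the floor (grey), with the quadratic fit (line) and the 8 members over the floor (red). Tlr9 at 5.40 stands well above the fit and Unc93b1 at -0.10 close to it.

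The order of the members by level per kilobase was the same at the top and differed in the middle. In the Cbl-/-Cblb-/- labelled library, Unc93b1 had 4266 normalized reads per kilobase, Cd180 3043, Tlr1 858, Tlr9 845, Myd88 740, Tlr6 144, Tlr4 137, Tlr7 89.7, Tlr2 24.1 and Tlr3 14.3. Tlr1 and Tlr9 (ratio 1.02, 0.969 to 1.06) and Tlr6 and Tlr4 (1.05, 0.948 to 1.17) did not differ beyond counting error there, and the other neighbours did. The wild type labelled library had 4564 for Unc93b1, 1734 for Cd180, 626 for Myd88, 597 for Tlr1, 45.1 for Tlr6, 37.1 for Tlr4, 34.0 for Tlr7, 19.7 for Tlr9, 15.2 for Tlr2 and 10.7 for Tlr3. In it Myd88 and Tlr1, the run from Tlr6 through Tlr4 to Tlr7, and the run from Tlr9 through Tlr2 to Tlr3 had neighbours whose ratios held 1 in their intervals. The place of Tlr9 differed most, standing at percentile 88.2 of the detected genes by level per kilobase in the Cbl-/-Cblb-/- labelled library and at percentile 33.0 in the wild type labelled library.

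Tlr9 and Tlr1 together made up most of the receptor transcripts in the Cbl-/-Cblb-/- labelled library, and Tlr1 alone did so in the wild type labelled library. Of 9801 reads on the 7 Tlr genes in the Cbl-/-Cblb-/- labelled library, 42.9% (Wilson 95% interval 41.9 to 43.9) were of Tlr9 and 33.2% (32.3 to 34.1) of Tlr1. Of 1542 reads in the wild type labelled library, 3.11% (2.36 to 4.10) were of Tlr9 and 71.7% (69.4 to 73.9) of Tlr1. Tlr4 took 11.1% (10.5 to 11.7) under the Cbl-/-Cblb-/- label against 9.34% (7.99 to 10.9) under the wild type label, and Tlr7 5.35% (4.92 to 5.81) under the Cbl-/-Cblb-/- label against 6.29% (5.18 to 7.61) under the wild type label, so these shares overlapped in their intervals. In direct comparison per kilobase, Tlr9 was 9.42 times Tlr7 (8.60 to 10.3) in the Cbl-/-Cblb-/- labelled library and 0.581 times Tlr7 (0.402 to 0.829) in the wild type labelled library. The 6 other receptors summed to 3912 normalized reads under the Cbl-/-Cblb-/- label against 2137 under the wild type label, a ratio of 1.83 (1.73 to 1.94).

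**Figure D4:**
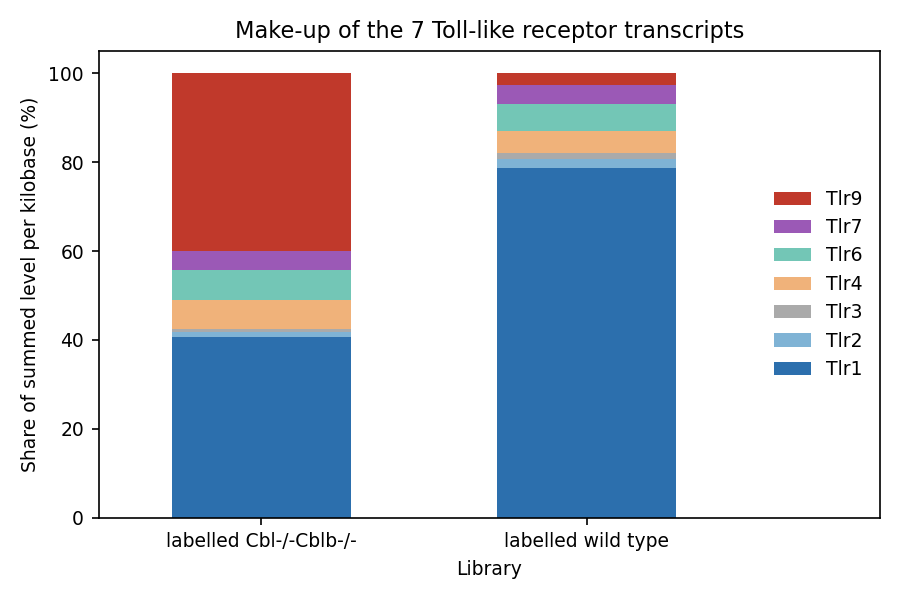
Share of the summed level per kilobase (%) held by each of the 7 Tlr genes in the Cbl-/-Cblb-/- labelled library (left) and the wild type labelled library (right). Tlr9 held 40.0% on the left and 2.60% on the right, and Tlr1 held 40.6% on the left and 78.7% on the right.

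The 5 further receptors of the family in the table were scarce. Tlr12 had 99 reads under the Cbl-/-Cblb-/- label and 35 under the wild type label, Tlr13 had 35 under the Cbl-/-Cblb-/- label and 5 under the wild type label, Tlr11 had 2 in each, and Tlr5 had 1 under the Cbl-/-Cblb-/- label and 0 under the wild type label. Tlr8, the neighbour of Tlr7 on the X chromosome, had 15 reads in the Cbl-/-Cblb-/- labelled library, against 0 in the wild type labelled library, where a count of 0 allows up to 3 reads, or 4.29 normalized reads. None of the 5 reached the floor.

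The other genes of the pathway went in both directions. The floor was passed by 55 of 75 listed genes. Relative to the wild type labelled library, 14 of these were higher by 2-fold or more and 6 lower by as much (backgrounds of 27.8% and 23.3%), with a median log2 ratio of 0.44. Scaled to total reads, 27 were higher and 2 lower, where 41.9% and 13.7% of all genes were. After adjustment for length, 14 were higher and 6 lower, where 18.1% and 21.3% of all genes were. The lists were drawn up with earlier results of these data known, and no gene was picked for its own value.

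TIR adaptors link receptors to the kinases, and 1 of the 3 over the floor was at least 2-fold higher (27.8% of all genes). Tirap, which brings MyD88 to TLR2 and TLR4 at the membrane, had 2033 normalized reads under the Cbl-/-Cblb-/- label against 498 under the wild type label and was 4.08-fold higher (3.65 to 4.58), with an adjusted log2 ratio of 1.60. The adaptors of the MyD88-independent branch, Ticam1 (748 under the Cbl-/-Cblb-/- label against 601 under the wild type label, ratio 1.24) and Ticam2 (687 under the Cbl-/-Cblb-/- label against 505 under the wild type label, ratio 1.36), were closer to level. Sarm1, an adaptor known mainly from neurons, had 16 reads under the Cbl-/-Cblb-/- label and 11 under the wild type label.

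Downstream kinases and ubiquitin enzymes had 17 of 20 genes over the floor, with a median log2 ratio of 1.0. Higher by 2-fold or more were 8 (27.8% of all genes), and 1 was lower (23.3%). The median length of these 17 was 6138 bases, beside 3652 over all genes. After adjustment 5 were higher (18.1% of all genes) and 3 lower (21.3%), and the median was 0.51. Ripk1, a kinase of the TRIF and TNF receptor branches, had 731 normalized reads under the Cbl-/-Cblb-/- label against 75.8 under the wild type label and was 9.64-fold higher (7.31 to 13.0, adjusted log2 ratio 2.55). Chuk, the IKK-alpha subunit, was 4.64-fold higher (4.22 to 5.11). Of the IRAK kinases that bind MyD88, Irak2 was 3.64-fold higher (3.06 to 4.35), Irak1 stood just under the 2-fold line with 4199 under the Cbl-/-Cblb-/- label against 2103 under the wild type label, and Irak4 was close to level with 763 under the Cbl-/-Cblb-/- label against 637 under the wild type label. Tab1, a subunit of the TAK1 kinase complex, had the lowest unadjusted ratio, with 986 normalized reads under the Cbl-/-Cblb-/- label against 2647 under the wild type label (log2 ratio -1.42, adjusted -1.29). After adjustment Ikbke (-2.13) and Ikbkb (-1.64), kinases of the IKK family, were lower than Tab1. Unadjusted, Ikbke stood at -0.90, whereas Ikbkb, a gene of 19078 bases, was higher in the Cbl-/-Cblb-/- labelled library (log2 ratio 0.79). The direction of Ikbkb thus turned with the adjustment. The highest level in the Cbl-/-Cblb-/- labelled library was that of the ubiquitin-conjugating enzyme gene Ube2n, at 1262 normalized reads per kilobase under the Cbl-/-Cblb-/- label against 1090 under the wild type label.

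**Figure D5:**
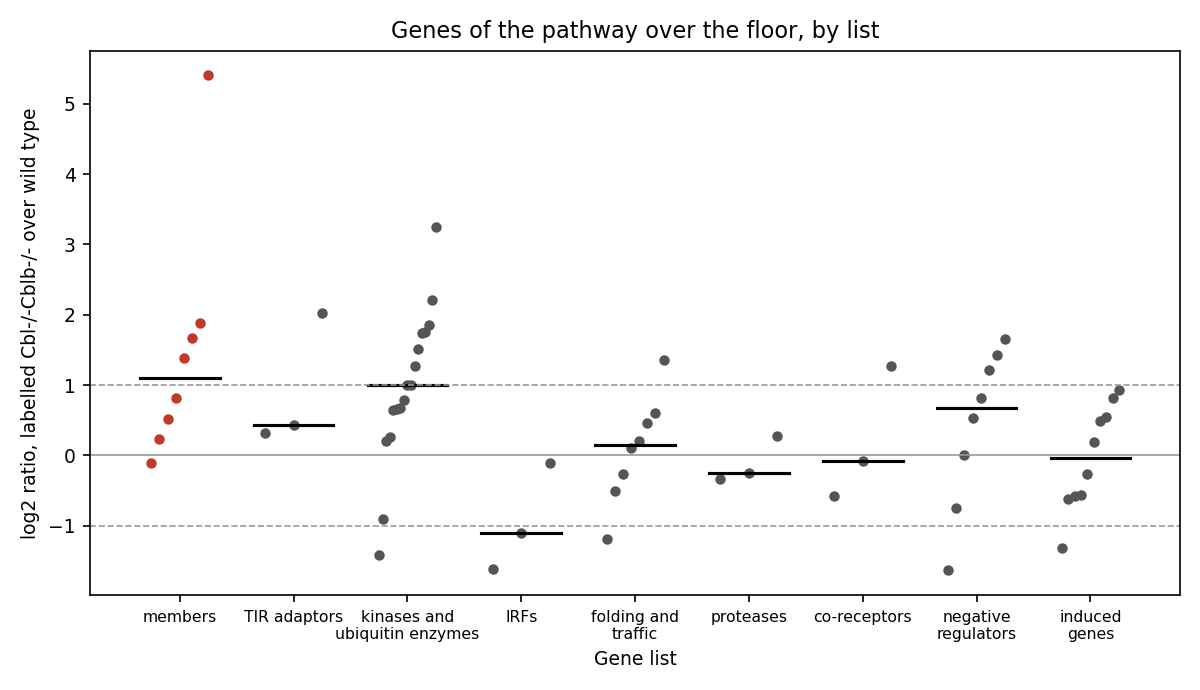
Log2 ratio (labelled Cbl-/-Cblb-/- over labelled wild type) of each pathway gene over the floor, by list, with the list median as a bar and dashed lines at 2-fold. The members (red) run from -0.10 to 5.40, and the kinases and ubiquitin enzymes have a median of 1.0. Below -1 lie 2 of the 3 interferon regulatory factors (IRFs), beside 23.3% of all genes at least 2-fold lower.

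Interferon regulatory factors, the other transcription factors activated by these receptors, were level or lower in the deposited normalized reads. Of the 3, 0 were at least 2-fold higher (27.8% of all genes) and 2 lower (23.3%). After adjustment for length 0 were higher (18.1% of all genes) and 1 lower (21.3%). Scaled to total reads, the log2 ratios were -1.09 for Irf3, -0.58 for Irf7 and 0.41 for Irf5. Irf3, which acts after TLR3 and TLR4, had 3421 normalized reads in the Cbl-/-Cblb-/- labelled library, against 10451 in the wild type labelled library (log2 ratio -1.61, adjusted -1.56). Irf7, which acts after TLR7 and TLR9, had 1120 under the Cbl-/-Cblb-/- label against 2396 under the wild type label (-1.10, adjusted -0.99). Irf5, which MyD88 also engages, had 6038 under the Cbl-/-Cblb-/- label against 6502 under the wild type label (-0.11, adjusted 0.04).

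Receptor folding and traffic genes had 8 of 8 over the floor, with a median log2 ratio of 0.15. At least 2-fold higher was 1 (27.8% of all genes), and 1 was lower (23.3%). Hsp90b1, the chaperone gp96 required for folding of most Toll-like receptors, had 13608 normalized reads under the Cbl-/-Cblb-/- label against 8967 under the wild type label (log2 ratio 0.60, adjusted 0.41). Its co-chaperone gene Cnpy3 had 1639 under the Cbl-/-Cblb-/- label against 3703 under the wild type label (-1.18, adjusted -0.95). Ap3b1, a subunit of the AP-3 adaptor that sorts cargo to lysosome-related compartments, was 2.55-fold higher (2.38 to 2.74). Endolysosomal proteases, which cleave TLR7 and TLR9 into their active forms, included 3 of 5 over the floor. Past 2-fold there were 0 upward (27.8% of all genes) and 0 downward (23.3%). Ctss had the highest level per kilobase, with 5471 normalized reads under the Cbl-/-Cblb-/- label against 4507 under the wild type label (log2 ratio 0.28, adjusted 1.04), and Ctsb the lowest log2 ratio at -0.34, with 2922 under the Cbl-/-Cblb-/- label against 3711 under the wild type label, positive once scaled to total reads.

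Of the surface co-receptors, Cd36, a scavenger receptor that assists TLR2 with TLR6, had 711 normalized reads under the Cbl-/-Cblb-/- label against 293 under the wild type label and was 2.42-fold higher (2.08 to 2.83). Negative regulators had 8 of 9 genes over the floor, with a median log2 ratio of 0.67 (adjusted 0.42). At least 2-fold higher were 3 (27.8% of all genes), and 1 was lower (23.3%). Cyld, a deubiquitinase, was 3.13-fold higher (2.94 to 3.33) with the highest ratio of this list, although its adjusted log2 ratio was 0.58. Sigirr, an inhibitory receptor of the interleukin-1 family, had 708 normalized reads under the Cbl-/-Cblb-/- label against 2195 under the wild type label (-1.63, adjusted -1.15).

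Genes that NF-kappaB activates after receptor engagement lay around level as a list. Of 16, 10 were over the floor, with a median log2 ratio of -0.03 (adjusted -0.05). At least 2-fold higher were 0 (27.8% of all genes), and 1 was lower (23.3%). After adjustment 3 were higher (18.1% of all genes) and 1 lower (21.3%). Socs3 had the highest ratio with 154 normalized reads under the Cbl-/-Cblb-/- label against 80.1 under the wild type label (log2 ratio 0.93), and Traf1 the lowest with 3998 under the Cbl-/-Cblb-/- label against 9899 under the wild type label (-1.31, adjusted -1.76). Cd83, an activation marker, had the highest level of the list, with 9751 normalized reads under the Cbl-/-Cblb-/- label against 14355 under the wild type label (-0.56). The cytokine gene Il6 had 0 reads in both libraries, where up to 3 reads per library remain possible.

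Markers of other cell types, several of which carry Toll-like receptors, were measured beside these values, and their part in the results was not tested. The 12 macrophage markers summed to 1570 normalized reads in the Cbl-/-Cblb-/- labelled library, against 2125 in the wild type labelled library, with Cd68 at 316 normalized reads under the Cbl-/-Cblb-/- label against 755 under the wild type label. Of the 7 over the floor 1 was higher by 2-fold or more (27.8% of all genes), Adgre1 with 151 normalized reads under the Cbl-/-Cblb-/- label against 55.8 under the wild type label, and 3 were lower (23.3% of all genes). Adgre1 passed the floor only under the Cbl-/-Cblb-/- label. After adjustment for length 1 was higher (18.1% of all genes) and 0 lower (21.3%). Under the floor, Mertk had 79 reads under the Cbl-/-Cblb-/- label and 4 under the wild type label (9.65-fold, 3.62 to 36.3), and Lyz2 had 137 reads under the Cbl-/-Cblb-/- label and 26 under the wild type label (2.57-fold, 1.68 to 4.08). Of 5 plasmacytoid dendritic cell markers, whose cells carry much Tlr9, the sum of 2210 under the Cbl-/-Cblb-/- label against 2598 under the wild type label was nearly all Pacsin1 (2195 under the Cbl-/-Cblb-/- label against 2577 under the wild type label). The defining marker Siglech of those cells had 14 reads under the Cbl-/-Cblb-/- label and 13 under the wild type label, near 0 in both libraries. Dendritic cell markers summed to 1508 normalized reads under the Cbl-/-Cblb-/- label against 1738 under the wild type label, mostly Flt3 (1070 normalized reads under the Cbl-/-Cblb-/- label against 1229 under the wild type label), with Ccr7 at 245 normalized reads under the Cbl-/-Cblb-/- label against 448 under the wild type label. Of the 7 dendritic cell markers 3 were over the floor, with 1 at least 2-fold higher (27.8% of all genes) and 0 lower (23.3%). The higher marker was Itgax, which encodes CD11c, with 157 normalized reads under the Cbl-/-Cblb-/- label against 28.6 under the wild type label (5.50-fold, 3.48 to 9.17). Itgax passed the floor only under the Cbl-/-Cblb-/- label. After adjustment for length 1 was higher (18.1% of all genes) and 1 lower (21.3%), the lower being Flt3 with a log2 ratio of -1.21. Neutrophil markers summed to 26.6 under the Cbl-/-Cblb-/- label against 18.6 under the wild type label, with Csf3r the highest at 15.4 normalized reads under the Cbl-/-Cblb-/- label against 11.4 under the wild type label, and Ly6g and Retnlg at 0 in both. T cell markers summed to 26.6 under the Cbl-/-Cblb-/- label against 55.8 under the wild type label, with Trac at 10 reads under the Cbl-/-Cblb-/- label and 4 under the wild type label and Cd3d at 2 reads under the Cbl-/-Cblb-/- label and 15 under the wild type label. Plasma cell markers summed to 27333 under the Cbl-/-Cblb-/- label against 25171 under the wild type label, mostly Jchain (22154 under the Cbl-/-Cblb-/- label against 20630 under the wild type label).

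Marginal zone B cells express Tlr9 strongly among mouse B cells, and of 6 markers of these cells 3 were at least 2-fold higher in the Cbl-/-Cblb-/- labelled library, beside 27.8% of all genes (also 3 after adjustment for length, beside 18.1%). Cd9 had 318 reads under the Cbl-/-Cblb-/- label and 51 under the wild type label (3.05-fold, 2.26 to 4.18), Cd1d1 had 105 normalized reads under the Cbl-/-Cblb-/- label against 45.8 under the wild type label (2.29-fold, 1.56 to 3.47) and S1pr1 had 872 normalized reads under the Cbl-/-Cblb-/- label against 286 under the wild type label (3.05-fold, 2.62 to 3.56). Cr2 had the highest level per length of the list in the Cbl-/-Cblb-/- labelled library, with 7836 normalized reads under the Cbl-/-Cblb-/- label against 4675 under the wild type label (log2 ratio 0.74, adjusted 0.03). Dtx1 had the highest in the wild type labelled library, with 4718 normalized reads under the Cbl-/-Cblb-/- label against 6451 under the wild type label. The remaining marker, S1pr3, had 1665 normalized reads under the Cbl-/-Cblb-/- label against 1312 under the wild type label (log2 ratio 0.34, adjusted 0.03). The list summed to 15418 normalized reads under the Cbl-/-Cblb-/- label against 12843 under the wild type label. S1pr1 is also carried by follicular B cells. The part of such cells in the Tlr9 values was not tested.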

How the data were processed

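Sorted-cell RNA became Illumina TruSeq libraries, read from both ends for 50 bases, per the labels' protocols. TopHat2 2.0.10, featureCounts, DESeq2 1.4.5 and GRCm38 are named in the submitters' processing notes, without the step each served. The sources used here did not give the annotation, the strand setting or the treatment of multiply matching reads. Per the file headers, the deposited signal is read counts per gene scaled by library size. Whole reads were recovered: all values (100% in both libraries) were multiples of the smallest one within 0.001 read, giving size factors of 1.43066 and 0.698976. FPKM values were deposited by the authors too and equal normalized reads per length over 1 common total, as found from the values. The authors' deposited comparison holds log2 fold changes, a test score and p-values, and rests on 2 unreplicated libraries.

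The members and lists were chosen with earlier results of these data known. Log2 ratios used a pseudocount of 1, which understates differences of low genes, with a floor of 100 normalized reads and a 2-fold line. Intervals at 95% are exact conditional for ratios, exact Poisson for levels and Wilson for shares. They cover counting error only, because 1 library per label gives no spread between libraries. Reads have no molecular identifiers, so duplicate reads could not be set apart, and the intervals may be too narrow even for counting error. A count test on the recovered reads could not be fitted with 0 residual degrees of freedom, so none was run. Named were Cbl and Cblb, the members, all co-receptors, TIR adaptors and interferon regulatory factors, in other pathway lists the highest and lowest ratio over the floor and the highest level, and in marker lists the highest level in either library. Outside this rule, Chuk, Ikbke, Ikbkb, the Irak genes, the further Tlr genes, Il6, Siglech, Ly6g and Retnlg were named after their values were seen. The same holds for Adgre1, Mertk, Lyz2, Itgax, Flt3, Cd9, Cd1d1, S1pr1, S1pr3 and the genes of the closing observations. Some genes that the rule takes, and sums that hold them, are left out of the text. Ms4a1, Bcl6 and Fas were named in the check of the cell type. Positions and exon overlaps came from GENCODE M21 on GRCm38, and identical 50-base windows from its transcripts. Adgre1, Jchain, Cgas and Sting1 were matched through older symbols. Ratios and intervals were tested on simulated data with Python 3.11.15, numpy 2.4.6, pandas 2.3.3 and scipy 1.17.1.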

Additional observations from a re-analysis of the deposited data

How the results depend on the processing

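Depth limits the scarce members: Tlr2 had 104 reads in the Cbl-/-Cblb-/- labelled library and 32 in the wild type labelled library, and Tlr9 had 48 in the wild type labelled library. No library could be left out, and genotype cannot be told apart from anything else that differs between the 2 libraries. No paired analysis was possible because each group holds 1 library and no result comes from a test. Members at 2-fold or more numbered 4 upward with the libraries centred on the median gene, a pseudocount of 10, a floor of 20, a floor of 100 on the mean and adjustment for length, and 6 when scaled to total reads. Downward there were 0 in each. Their median log2 ratio of 1.10 became 1.62 when scaled to total reads, which adds a constant, and 0.73 with a floor of 20, which takes in Tlr2 and Tlr3. For the other pathway genes, total scaling gave a median of 0.97 in place of 0.44, 27 genes upward in place of 14 and 2 downward in place of 6. Over the settings that apply to single genes, the log2 ratio ran from 5.23 to 5.91 for Tlr9, 1.31 to 2.40 for Tlr4, 1.52 to 2.18 for Tlr6 and 1.18 to 1.91 for Tlr7. Unc93b1 lay between -0.25 and 0.42, and so on both sides of 0.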

Other observations

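The lists behind these values were drawn up after the members' values were seen. Sensors outside the Toll-like receptor family were listed beside the members. Of 12 genes listed, 9 were over the floor, with a median log2 ratio of 0.82 beside 0.15 over all genes. Relative to the wild type labelled library, 1 reached 2-fold upward (27.8% of all genes) and 0 downward (23.3%). After adjustment the median was 0.54 beside -0.07 over all genes, with 0 past 2-fold upward (18.1% of all genes) or downward (21.3%). Ddx58, which encodes the cytosolic RNA sensor RIG-I, had 609 normalized reads in the Cbl-/-Cblb-/- labelled library, against 190 in the wild type labelled library (3.20-fold higher, 2.66 to 3.87). Its adjusted log2 ratio was 0.79. Among sensors of DNA, Aim2 had 1985 under the Cbl-/-Cblb-/- label against 1120 under the wild type label (log2 ratio 0.82), Zbp1 had 912 under the Cbl-/-Cblb-/- label against 920 under the wild type label (-0.01) and Cgas had only 26 reads under the Cbl-/-Cblb-/- label and 8 under the wild type label. Sting1, the adaptor after cGAS, had 1503 normalized reads under the Cbl-/-Cblb-/- label against 1322 under the wild type label (0.19, adjusted 0.54).

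Receptors of the interleukin-1 family also signal through MyD88, and 1 of 7 was over the floor. Il1rap, the shared accessory chain, had 211 normalized reads in the Cbl-/-Cblb-/- labelled library, against 18.6 in the wild type labelled library, 11.3-fold higher (6.54 to 21.6), from 302 reads under the Cbl-/-Cblb-/- label and 13 under the wild type label. At 11360 bases it is a long gene, and its adjusted log2 ratio was 1.86. Il1r1 had 43 reads under the Cbl-/-Cblb-/- label and 3 under the wild type label, with a ratio interval of 2.24 to 35.3. Il1r2 had 44 reads under the Cbl-/-Cblb-/- label and 23 under the wild type label (ratio 0.935, 0.552 to 1.62). Il18rap had 18 under the Cbl-/-Cblb-/- label and 8 under the wild type label (ratio 1.10, 0.455 to 2.92). Il18r1 had 12 under the Cbl-/-Cblb-/- label and 5 under the wild type label (ratio 1.17, 0.385 to 4.25). The intervals of Il1r2, Il18rap and Il18r1 held 1. Il1rl2 had 7 reads and Il1rl1 3 under the Cbl-/-Cblb-/- label, and each had 0 under the wild type label.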
